A study of Mus musculus with 16 samples.

Results

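The chemokine receptor genes Cxcr4, Ccr1, Ccr2, Cx3cr1 and Ccrl2 were followed across RNA libraries of mouse bone marrow-derived macrophages, in medium lacking or holding serine, with lipopolysaccharide (LPS) or untreated. These 5 genes were taken by symbol from the 43430 gene rows of the count table, and all 5 were among the 11004 genes that passed the filter on low counts. They were picked with earlier results of these data in view, and Cxcr4 was picked for its higher level without serine under LPS. For that reason, Cxcr4 is only described in the comparison of media under LPS and in the difference between the media comparisons, and is tested elsewhere.

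The macrophages were differentiated from C57BL/6J marrow with macrophage colony-stimulating factor and moved to minimal essential medium (MEM). The 4 groups were LPS without serine, LPS with serine, untreated without serine and untreated with serine, with 4 libraries each, and RNA was taken 4 h after 100 ng/mL LPS. Every group carries the same strain label and no engineered allele is given, so all cells differ only in medium and LPS as far as the labels go. The series title ties serine metabolism to IL-1β production, and the question put to these genes was how each medium and LPS changed their transcripts. No label tells if replicates came from different animals or cultures, so the p-values here reflect spread among these libraries. Replicate 1 had the male pattern of sex-linked transcripts and the rest had the female pattern. Sex therefore cannot be told apart from replicate 1, and the spread among replicates 2 to 4 may be technical.

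Chemokine receptors are membrane-spanning proteins that bind small secreted chemokines, couple to inhibitory G proteins and steer cell movement. CXCR4 binds CXCL12 and holds leukocytes and progenitors in the bone marrow. CCR2 binds CCL2 and related chemokines and brings inflammatory monocytes out of the marrow, CCR1 binds CCL3 and CCL5 among others, and CX3CR1 binds the membrane-tethered chemokine CX3CL1 and marks resident and patrolling mononuclear phagocytes. CCRL2 is an atypical receptor that binds chemerin without the usual signal and presents it to other cells. LPS acts through Toll-like receptor 4 and drives NF-kappa B and interferon responses in macrophages.

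Cxcr4 lies on the minus strand at chr1:128588199-128592293 of mm10. The other 4 lie on chromosome 9, with Ccrl2 at chr9:111054835-111057270, Cx3cr1 at chr9:119901616-120068283 and Ccr1 at chr9:123962126-123968692, all on the minus strand, and Ccr2 at chr9:124101950-124113557 on the plus strand. Of their exons, only those of Cx3cr1 overlap another annotated gene, the antisense Gm33858, over 78 bases or 1.73% of exon length. Of the 75-base words of the Ccr2 exons, 1.16% also occur in another annotated gene, so a small part of its reads is uncertain. Cxcr4, Ccr1 and Ccrl2 shared none with another gene.

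The 250 bases before the RefSeq start sites (GRCm38.p6) of 3 members are printed. These are Ccrl2 and Ccr1, which rose under LPS as described below, and Cxcr4, which gave the widest fall. Each holds a match to a motif searched below. Cx3cr1 and Ccr2, which also fell, hold no such match and are not printed, so the printed set is a selection. Capitals mark a TATA match in Cxcr4 at chr1:128592300-128592549, a kappa B match in Ccr1 at chr9:123968693-123968942, and in Ccrl2, at the first of its 3 start sites at chr9:111057519-111057768, a match to the hypoxia response core (CACGT, read on the minus strand of the promoter as ACGTG) followed by a kappa B match. All 3 are written 5′ to 3′ along the gene, which is the minus strand of the genome.
Cxcr4: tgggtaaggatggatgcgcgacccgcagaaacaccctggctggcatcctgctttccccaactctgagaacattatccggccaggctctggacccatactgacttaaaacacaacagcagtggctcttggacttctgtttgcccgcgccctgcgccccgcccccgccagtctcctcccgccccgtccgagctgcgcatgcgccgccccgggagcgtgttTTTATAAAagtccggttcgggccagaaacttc
Ccr1: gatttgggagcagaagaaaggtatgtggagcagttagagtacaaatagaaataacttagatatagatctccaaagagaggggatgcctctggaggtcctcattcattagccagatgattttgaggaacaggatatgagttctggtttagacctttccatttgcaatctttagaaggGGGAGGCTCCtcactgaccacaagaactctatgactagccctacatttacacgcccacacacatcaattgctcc
Ccrl2: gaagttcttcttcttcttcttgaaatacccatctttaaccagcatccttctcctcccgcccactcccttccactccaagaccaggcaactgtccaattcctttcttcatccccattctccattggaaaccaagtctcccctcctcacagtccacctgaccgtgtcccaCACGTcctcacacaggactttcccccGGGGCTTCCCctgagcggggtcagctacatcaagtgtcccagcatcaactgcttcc

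Both strands were searched with motifs chosen after the expression values were known. The TATA motif TATAAA began 30 bases before the start site of Cxcr4, overlapping a match on the other strand that began 32 bases before it, and 12.4% of 32851 mouse promoters of this length hold one. The kappa B motif began 74 bases before the start site in Ccr1 and 56 bases before it in Ccrl2, where it matched on both strands, and is held by 7.25% of promoters. The core ACGTG began 82 bases before the Ccrl2 start site and is held by 16.6% of promoters. At its other start sites Ccrl2 had the ACGTG core and no kappa B match. The Ccrl2 gene as deposited with the counts ends at 111057270, beside the second start site with its window at chr9:111057271-111057520. The GENCODE annotation ends the gene at 111057519, beside the first start site, so the kappa B match lies before a start site outside the deposited gene. Cxcr4, Ccr2 and Cx3cr1 had no kappa B match in these windows. Most of the Ccr2 window, chr9:124101933-124102182, lies inside the gene, which starts at 124101950 both as deposited and in GENCODE. The interferon response core (2 copies of GAAA with 2 bases between them), the AP-1 motif TGANTCA and the amino acid response core TGATGNAA, held by 2.98%, 6.75% and 3.45% of promoters, matched none of the 7 windows of the 5 members. The Cxcr4 window was 61.2% G and C with 19 CG pairs, the Ccr1 window was 43.6% with 1 pair, and the median over all promoters was 52.4%.

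Library totals ran from 2871477 counts, in replicate 4 of the untreated cells without serine, to 10043362. That smallest library also had the fewest detected genes at 12900. Without it, 63.4% of genes were called under LPS without serine at a median log2 fold change of -0.05, against 56.8% and -0.12 with it. Macrophage markers such as Adgre1, Cd68 and Csf1r had 14 of 14 genes tested and summed levels of 18885 to 32478 CPM (counts scaled to a common library total). Monocyte markers summed to 208 to 301 CPM under LPS without serine, 212 to 367 under LPS with serine, 32.4 to 87.4 in untreated cells without serine and 16.8 to 79.9 with it, with 7 of 8 tested. Neutrophil markers, with 7 of 12 tested, summed to 89.6 to 202, 86 to 199, 61.2 to 243 and 56.5 to 201 CPM in the same order of groups, and were highest in replicate 1 of every group. Stromal markers, with 4 of 7 tested, summed to 14.8 to 38.9 CPM under LPS without serine, 22.4 to 44.8 under LPS with serine, 1.01 to 20.8 in untreated cells without serine and 1.53 to 18.2 with it. T and NK cell markers, with 1 of 8 tested, summed to 0.78 to 6.24, 1.61 to 5.81, 0 to 0.239 and 0 to 0.251 CPM in that order of groups, and Cd3d, Cd3e, Cd3g and Gzma had no count in any library. B cell markers reached at most 3.37 CPM with Pax5 at 0, and mast cell markers at most 4.94 CPM with Mcpt4, Tpsb2 and Fcer1a at 0, both in untreated cells without serine. Progenitor markers, with 2 of 5 tested, summed to 1.56 to 3.29 CPM under LPS without serine and 1.86 to 3.72 under LPS with serine. In untreated cells progenitor markers summed to 1.35 to 7.57 CPM without serine and 2.78 to 6.55 with it. Replicate 1 of each group had no Xist count and 1214 to 2420 counts on the Y chromosome, against 351 to 1477 and 1 to 16 in the other 12 libraries. The part of other cell types and of sex in the results was not tested, and in bulk RNA fewer cells of a type and less RNA per cell cannot be told apart.

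Under LPS, transcripts of the 5 receptors moved in both directions in either medium: Ccrl2 and Ccr1 rose, and Cxcr4, Cx3cr1 and Ccr2 fell. Levels are given as CPM scaled by TMM, a factor that sets the bulk of genes level between libraries, and tests are edgeR's quasi-likelihood test over all 11004 genes with Benjamini-Hochberg adjustment and a threshold of 0.05. All 5 members were called in both media, where 56.8% of all genes were called without serine and 55.8% with serine, so a call by itself was common. The 2 that rose compare with 27.1% of genes called higher without serine and 27.6% with serine, and the 3 that fell with 29.7% and 28.2% called lower. In the 8 fits per medium that each left out 1 library, all 5 calls held.

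Cxcr4 gave the widest fall of the 5. Without serine, its level was 126, 87.6, 74.9 and 103 CPM in the LPS libraries 1 to 4, against 772, 641, 661 and 580 CPM in untreated cells. With serine, it was 49.9, 43.9, 41.7 and 46.6 CPM under LPS, against 757, 599, 622 and 650 CPM in untreated cells. Every LPS library was below every untreated one, a separation that 47.7% of all genes showed in 1 direction or the other without serine and 61.6% with serine, and the untreated libraries of the media overlapped. The log2 fold change was -2.76 ± 0.16 (SE) without serine (edgeR adjusted p = 2.89e-10) and -3.85 ± 0.16 with serine (adjusted p = 1.35e-11). Taken by replicate number, LPS cells held 16.3%, 13.7%, 11.3% and 17.7% of the untreated level without serine, and 6.58%, 7.32%, 6.69% and 7.16% with serine. Both tests use the LPS libraries on which Cxcr4 was picked. The gap between the media in this fall restates the picked difference and is a description.

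Cx3cr1, the fractalkine receptor, fell in both media. In medium without serine it had 3.5, 8.15, 3.74 and 5.46 CPM under LPS, against 22.5, 31.8, 21.8 and 26 CPM untreated. In complete medium it had 6.25, 12.6, 5.76 and 8.27 CPM under LPS, against 34.4, 52.5, 32.3 and 26.2 CPM untreated. Replicate 2 was the highest library in 4 of 4 groups, and LPS and untreated libraries did not overlap. Its log2 fold change was -2.29 ± 0.30 without serine (edgeR adjusted p = 7.19e-06) and -2.15 ± 0.29 with serine (adjusted p = 7.48e-06).

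Ccr2, the monocyte receptor for CCL2, was the lowest of the 5 per length. Its levels without serine were 5.94, 7.63, 5.79 and 4.29 CPM under LPS, against 19.3, 15.4, 19.9 and 13.8 CPM untreated. With serine they were 12.7, 7.94, 6.94 and 6.86 CPM under LPS, against 32.8, 19.5, 20.5 and 16.3 CPM untreated. Replicate 1 stood above the other libraries in both groups with serine, and in neither group without serine. Neutrophil and monocyte markers were highest in replicate 1 of every group, and their part in the Ccr2 level was not tested. The log2 fold change was -1.54 ± 0.26 without serine (edgeR adjusted p = 8.45e-05) and -1.36 ± 0.25 with serine (adjusted p = 0.000164), with no overlap between LPS and untreated libraries.

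Ccrl2, the atypical chemerin receptor, gave the widest rise of the 5. Libraries 1 to 4 held 826, 877, 876 and 742 CPM under LPS without serine, against 24.2, 17.7, 18.9 and 13.8 CPM in untreated cells without serine. They held 725, 555, 706 and 582 CPM under LPS with serine, against 16.4, 15.1, 14.3 and 13.4 CPM in untreated cells with serine. Replicates lay close together on either side of this gap. The log2 fold change was 5.45 ± 0.17 without serine (edgeR adjusted p = 1.07e-12) and 5.44 ± 0.17 with serine (adjusted p = 9.21e-13), or 43.8-fold and 43.3-fold.

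Ccr1, a receptor for CCL3 and CCL5, rose by less. Without serine it had 29.4, 41.3, 42.1 and 42.1 CPM under LPS, against 10.9, 17.9, 15.1 and 14.8 CPM untreated. With serine it had 19.9, 47.7, 50.3 and 44.4 CPM under LPS, against 13.3, 16.6, 17.5 and 13.8 CPM untreated. Replicate 1 was the lowest library in 4 of 4 groups, and with serine its own ratio of LPS to untreated was 1.5, against 2.87 to 3.22 in the other replicates. The log2 fold change was 1.40 ± 0.24 without serine (edgeR adjusted p = 0.000126) and 1.40 ± 0.24 with serine (adjusted p = 0.0001).

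**Figure D1:**
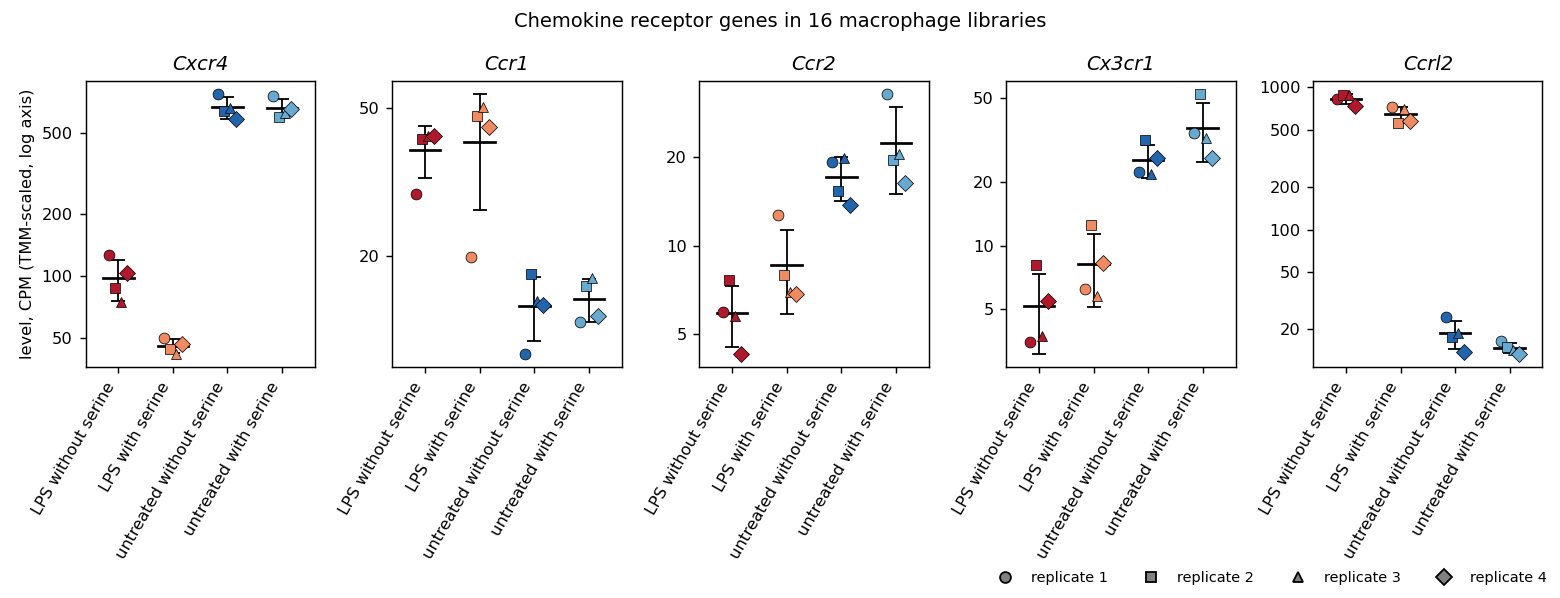
Level of each receptor gene in CPM (TMM-scaled, log axis, with its own range in each panel) in the 4 groups, with a symbol for each replicate number, a line at the mean and bars of 1 SD (n = 4). LPS libraries lie apart from untreated ones for all 5 genes, as for 47.7% of all genes without serine and 61.6% with serine. The LPS libraries without serine lie above those with serine for Cxcr4 (74.9 to 126 against 41.7 to 49.9) and Ccrl2 (742 to 877 against 555 to 725). Cxcr4 was picked on this comparison of media under LPS, in which the libraries of 7.58% of all genes did not overlap.

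The size of these changes depends on how libraries are scaled, and the cause of that was not tested. With library totals in place of TMM factors, the median log2 fold change of all genes was lower by 0.57 without serine and by 0.62 with serine, and the share of higher genes among calls was 20.4% and 20.6%, against 47.7% and 49.5% with TMM. Relative to totals, the log2 fold changes without serine were -3.33 for Cxcr4, 0.82 for Ccr1, -2.12 for Ccr2, 4.87 for Ccrl2 and -2.86 for Cx3cr1. With serine they were -4.47 for Cxcr4, 0.78 for Ccr1, -1.98 for Ccr2, 4.82 for Ccrl2 and -2.76 for Cx3cr1. Directions and calls of the 5 members were kept under both scalings. The authors' deposited table gives a log2 fold change of -2.76 for Cxcr4 and 5.46 for Ccrl2 under LPS without serine, and -3.85 and 5.44 with serine.

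Levels were set side by side between genes only per kb of gene length. On the deposited lengths, Ccrl2 led under LPS, with 393 ± 30.1 CPM per kb without serine and 304 ± 40.7 with serine (SD, n = 4 each), and Cxcr4 led in untreated cells, with 245 ± 29.5 without serine and 243 ± 25.8 with serine. In rank among the 11004 genes per kb, Cxcr4 stood at 1235 under LPS without serine, 2231 under LPS with serine, 106 in untreated cells without serine and 79 with serine. Ccrl2 stood at 97, 136, 3038 and 3493 in the same order of groups, so the pair changed places near the top of the list. Ccr1 had 13.7 ± 2.2 CPM per kb under LPS without serine, 14.3 ± 4.93 under LPS with serine, 5.19 ± 1.02 in untreated cells without serine and 5.4 ± 0.722 with serine.

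Cx3cr1 and Ccr2 were the lowest pair under LPS. Cx3cr1 had 0.757 ± 0.311 CPM per kb under LPS without serine and 1.19 ± 0.453 under LPS with serine, and Ccr2 had 0.418 ± 0.0966 and 0.608 ± 0.194, with overlapping libraries in both media. The order Ccrl2, Cxcr4, Ccr1, Cx3cr1, Ccr2 was found in both LPS groups, and Cxcr4, Ccrl2, Ccr1, Cx3cr1, Ccr2 in both untreated ones. In LPS cells with serine the libraries of Cxcr4 and Ccr1 overlapped, and in untreated cells those of Ccr1 and Cx3cr1. The places between Cxcr4 and Ccr2 in the untreated order rest on the length used. Cx3cr1 has a deposited length of 6885 bases against 4505 of annotated exons, and Ccrl2 has 2110 against 2598. Ccr2 came last on each length used. Its deposited length of 14140 bases is longer than the gene's own span of 11608, while its annotated exons cover 6760. On GENCODE exon lengths, added after the values were seen, Cx3cr1 stood above Ccr1 in untreated cells without serine and above both Ccrl2 and Ccr1 with serine, with overlapping libraries each time.

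**Figure D2:**
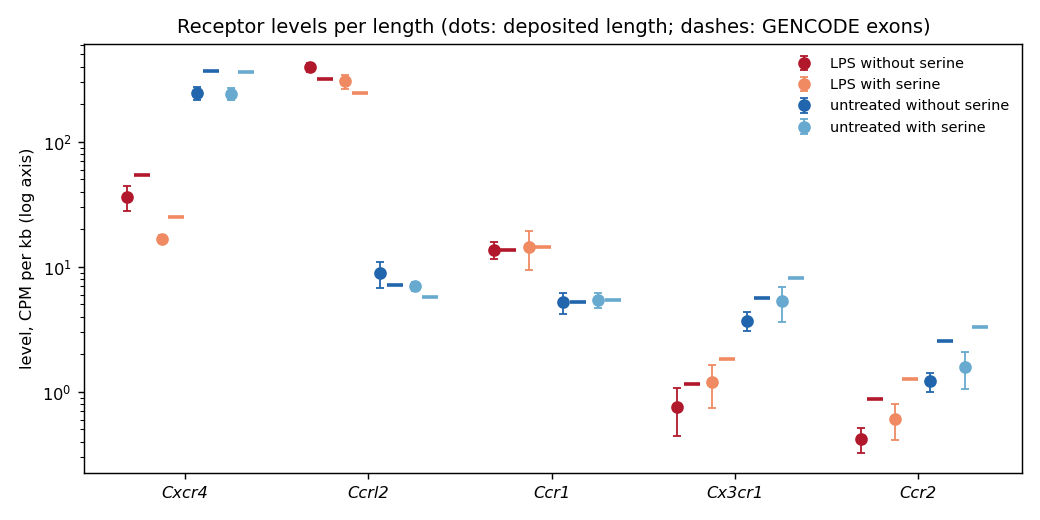
Mean level per kb of length (log axis) of the 5 receptors in each group, as dots with bars of 1 SD (n = 4) for the deposited gene length and as dashes for annotated exon length. Cxcr4 is near 245 CPM per kb in untreated cells and Ccrl2 is at 304 to 393 under LPS, and the dashes of Ccr2 lie well above its dots.

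Serine withdrawal under LPS left Cxcr4 at a higher level than in complete medium in every replicate. Mean levels were 97.8 ± 21.9 CPM in LPS cells without serine and 45.5 ± 3.54 CPM in LPS cells with serine (SD, n = 4 each), and the lowest library without serine, 74.9 CPM, lay above the highest with serine, 49.9 CPM. In this comparison the libraries of 7.58% of all genes did not overlap. By replicate number the ratios were 2.52, 2, 1.8 and 2.21. The fitted log2 fold change was 1.10, with a 95% interval of 0.78 to 1.42, and this is a description without a test, since the gene was picked on this contrast. In untreated cells the means were 664 ± 79.9 CPM without serine and 657 ± 69.9 CPM with serine, with a log2 fold change of 0.01 and an interval of -0.29 to 0.32 (edgeR adjusted p = 0.989). The difference between the withdrawals was 1.09 ± 0.21 (SE) on the log2 scale, again as a description.

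For the other 4 members, serine withdrawal gave no call under LPS, where 0.0636% of all genes were called (7 genes, and 676 at an unadjusted p under 0.05). With the replicate number as a block, 98 genes or 0.891% were called and none of these 4 was among them. Ccrl2 averaged 830 ± 63.5 CPM in LPS cells without serine and 642 ± 85.9 CPM with serine (SD, n = 4 each). Its libraries did not overlap either, as for 7.58% of all genes. Its log2 fold change was 0.37 with an interval of 0.07 to 0.67 (edgeR adjusted p = 0.573, and 0.187 with the block), and it was higher without serine in 4 of 4 pairs. In untreated cells Ccrl2 averaged 18.7 ± 4.29 CPM without serine and 14.8 ± 1.27 CPM with serine, a log2 fold change of 0.36 with an interval of 0.03 to 0.68 (edgeR adjusted p = 0.816).

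Cx3cr1 and Ccr2 had lower values without serine in 4 of 4 pairs under LPS and in 4 of 4 pairs untreated, and neither passed the threshold. Cx3cr1 averaged 5.21 ± 2.14 CPM in LPS cells without serine and 8.22 ± 3.12 CPM with serine (SD, n = 4 each). Its pair ratios under LPS were 0.56, 0.646, 0.649 and 0.66, although the libraries of the groups overlapped, since replicate 2 was high in both. The log2 fold change was -0.66 with an interval of -1.33 to 0.02 under LPS (edgeR adjusted p = 0.832, and 0.194 with the block). In untreated cells it averaged 25.5 ± 4.55 CPM without serine and 36.3 ± 11.3 CPM with serine, a log2 fold change of -0.51 with an interval of -1.07 to 0.05 (edgeR adjusted p = 0.816).

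Ccr2 averaged 5.91 ± 1.37 CPM in LPS cells without serine and 8.6 ± 2.75 CPM with serine (SD, n = 4 each), with ratios by replicate of 0.469, 0.96, 0.834 and 0.625. The fitted log2 value was -0.54 with an interval of -1.11 to 0.02 (edgeR adjusted p = 0.838). In untreated cells Ccr2 averaged 17.1 ± 2.94 CPM without serine and 22.3 ± 7.27 CPM with serine, a log2 fold change of -0.37 with an interval of -0.86 to 0.12 (edgeR adjusted p = 0.816). Replicate 1 showed the widest gap in both comparisons. Ccr1 averaged 38.7 ± 6.22 CPM in LPS cells without serine and 40.6 ± 14 CPM with serine, and 14.7 ± 2.87 and 15.3 ± 2.04 CPM in untreated cells without and with serine, and its log2 intervals of -0.56 to 0.43 and -0.58 to 0.46 span 0.

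In untreated cells serine withdrawal called none of the 5 members and 0% of all genes with edgeR, while 548 genes had an unadjusted p under 0.05 and DESeq2 called 13 genes. The block called 9 genes, or 0.0818%, and no member. Removing the smallest library as well as adding the block was an alternative added after the data were seen. It called 79 genes, or 0.711%, in untreated cells, Cx3cr1 among them at -0.59 on the log2 scale (edgeR adjusted p = 0.017). That same fit called 922 genes, or 8.3%, under LPS, with Ccrl2 at 0.38 (adjusted p = 0.00206) and Cx3cr1 at -0.65 (adjusted p = 0.0411). The withdrawals themselves did not differ for these 4 members beyond the threshold, and 0% of all genes were called in that comparison (253 at an unadjusted p under 0.05, and 1 by DESeq2). The log2 differences, withdrawal under LPS minus withdrawal in untreated cells, were -0.01 ± 0.34 for Ccr1, -0.18 ± 0.35 for Ccr2, 0.01 ± 0.21 for Ccrl2 and -0.14 ± 0.41 for Cx3cr1 (SE).

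**Figure D3:**
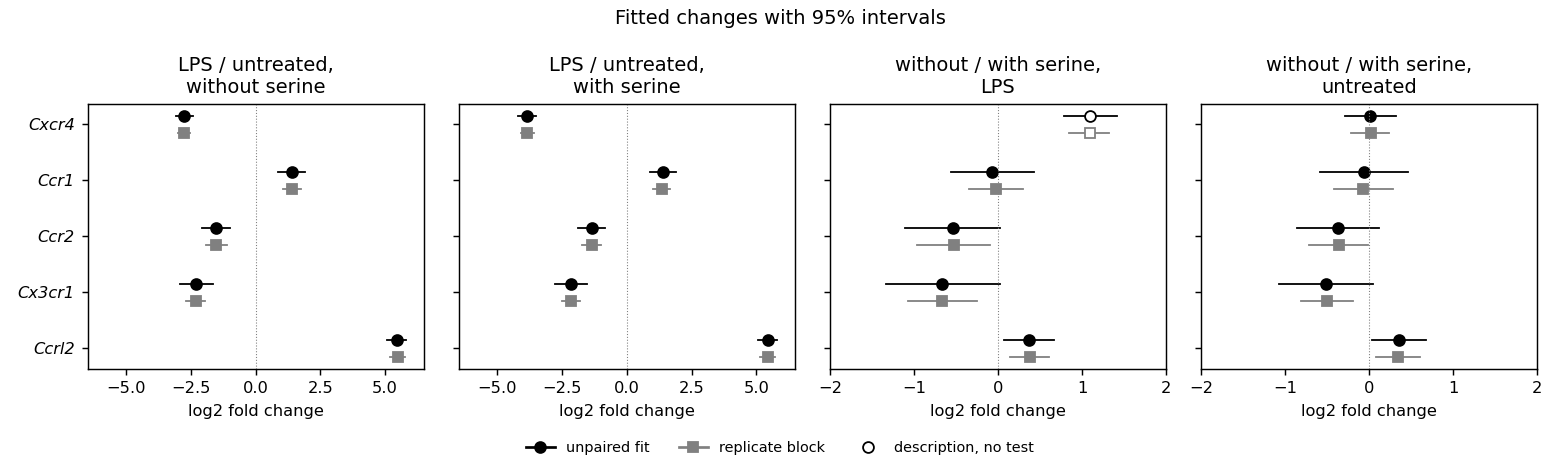
Fitted log2 fold changes of the 5 receptors with 95% intervals for LPS over untreated (left, without and with serine) and for medium without over with serine (right, under LPS and untreated), from the unpaired fit (black) and with the replicate block (grey). The scale of the right-hand panels is narrower, open symbols are descriptions without a test, and in the LPS panel Cxcr4 is at 1.10 while Ccr1, Ccr2 and Cx3cr1 lie at or below 0.

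Ligands of these receptors were measured in the same cells. Of 12 listed, 10 were tested, and 7 rose and 0 fell under LPS in each medium, with a median log2 fold change of 3.38 without serine, against -0.12 for all genes, and of 3.69 with serine, against -0.03 for all genes. Of all genes, 27.1% were called higher without serine and 27.6% with serine, and genes with few counts in untreated cells passed the filter through their LPS libraries, so the counts of this list and of the other receptors are descriptions. The CCR2 ligand Ccl2 had 239 ± 88.5 CPM under LPS without serine, against 0.617 ± 0.156 untreated, and 277 ± 91.4 CPM under LPS with serine, against 0.99 ± 0.301 untreated (SD, n = 4 each). The CCR1 ligand Ccl3 had 1522 ± 242 CPM under LPS without serine, against 7.05 ± 0.637 untreated, and 1723 ± 271 CPM under LPS with serine, against 5.12 ± 1.11 untreated. Ccl12, another CCR2 ligand, had 23.6 ± 14.8 CPM under LPS with serine and no count in untreated cells with serine, and with that group set to 3 counts in all it was at least 274-fold higher. Cx3cl1, the ligand of CX3CR1, had log2 fold changes of 2.33 ± 0.41 without serine and 3.20 ± 0.40 with serine (SE), given as a description. It had 2 to 14 counts per library in untreated cells without serine and 2 to 13 with serine, and passed the filter through its LPS libraries.

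The remaining CC ligands that rose were Ccl7, Ccl5 and Ccl9, with log2 fold changes of 9.12, 3.76 and 2.99 without serine and 9.29, 4.02 and 3.37 with serine. The CXCR4 ligand Cxcl12 had 48 counts over all libraries and chemerin (Rarres2) had 3, and both were below the filter. Mif, also a ligand of CXCR4, changed by -0.82 on the log2 scale without serine (edgeR adjusted p = 0.129) and 0.33 with serine (adjusted p = 0.562). With the replicate block, Mif was at -0.71 without serine (edgeR adjusted p = 0.0344), a value that rests on replicate 4: its paired log2 ratios were -0.53, -0.03, -0.20 and -1.87. Without the smallest library Mif was at -0.17 in the unpaired fit (adjusted p = 0.718) and -0.24 with the block (adjusted p = 0.0298). The block also called Ccl8 higher with serine (1.54, edgeR adjusted p = 0.00405). No ligand was called in either serine withdrawal by the unpaired fit or the block. The block without the smallest library called 4 of 10 lower under LPS, where it called 8.3% of all genes.

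Among 18 other chemokine receptor genes, 5 passed the filter, and 4 rose and 0 fell under LPS in each medium, where 27.1% of all genes were called higher without serine and 27.6% with serine. Xcr1, a receptor known from cross-presenting dendritic cells, changed by 3.10 ± 0.32 on the log2 scale without serine and 4.26 ± 0.32 with serine (SE), with 19 counts in all in untreated cells with serine. Dendritic cell markers, a list that holds Xcr1 and had 2 of 10 genes tested, summed to 15 to 25.6 CPM in the LPS libraries and 3.9 to 7.27 CPM in the untreated ones, and their part was not tested. Ccr9, which guides cells to the gut, changed by 1.56 ± 0.37 and 3.10 ± 0.43, Ccr3, the eotaxin receptor, by 2.19 ± 0.31 and 2.13 ± 0.30, and the chemerin receptor Cmklr1 by 1.46 ± 0.33 and 1.43 ± 0.32, without and with serine. Ccr9 had only 19 counts in all in untreated cells without serine and 7 with serine. Ccr4, Ccr6, Ccr8, Ackr1 and Ackr3, the last a second receptor for CXCL12, had no count in any library, which allows at most 0.299 to 1.04 CPM per library by a floor of 3 counts. In the serine withdrawals none of these was called by the unpaired fit or the block. The block without the smallest library called 2 of 6 lower under LPS, where it called 8.3% of all genes.

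Of 26 genes for receptor signalling and desensitisation, 10 rose and 6 fell under LPS without serine, and 11 rose and 6 fell with serine, shares near the 56.8% and 55.8% of all genes called. With the replicate block the count without serine was 10 higher and 7 lower, Grk6 being added at -0.28 (edgeR adjusted p = 0.0436), and without the smallest library it was 11 higher and 8 lower. Regulators of G protein signalling, which shorten the signal of such receptors, moved both ways: Rgs16 changed by 3.79 ± 0.44 without serine and 5.07 ± 0.46 with serine, Rgs14 by 3.04 ± 0.27 and 2.80 ± 0.26, Rgs1 by 2.38 ± 0.43 and 2.50 ± 0.43, and Rgs2 by -2.96 ± 0.27 and -3.08 ± 0.27 on the log2 scale (SE). Rgs16 had 29 counts in all in untreated cells without serine and 20 with serine. It passed the filter through its LPS libraries, so its change and its place in the counts of this list are descriptions. The phosphoinositide 3-kinase gamma subunit gene Pik3r5 changed by 1.95 ± 0.16 without serine and 1.90 ± 0.16 with serine. Arrb1, which encodes a beta-arrestin that uncouples and internalises receptors, changed by -2.26 ± 0.22 with serine, and the receptor kinase gene Grk3 by 2.01 ± 0.36 without serine. Both genes were also called in the same direction in the other medium. The list's median log2 fold change was 0.17 without serine and 0.04 with serine, and relative to library totals the split was 7 higher and 14 lower in each medium. In the serine withdrawals none of the 26 was called by the unpaired fit or the block. The block without the smallest library called 1 higher and 2 lower under LPS, where it called 8.3% of all genes.

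**Figure D4:**
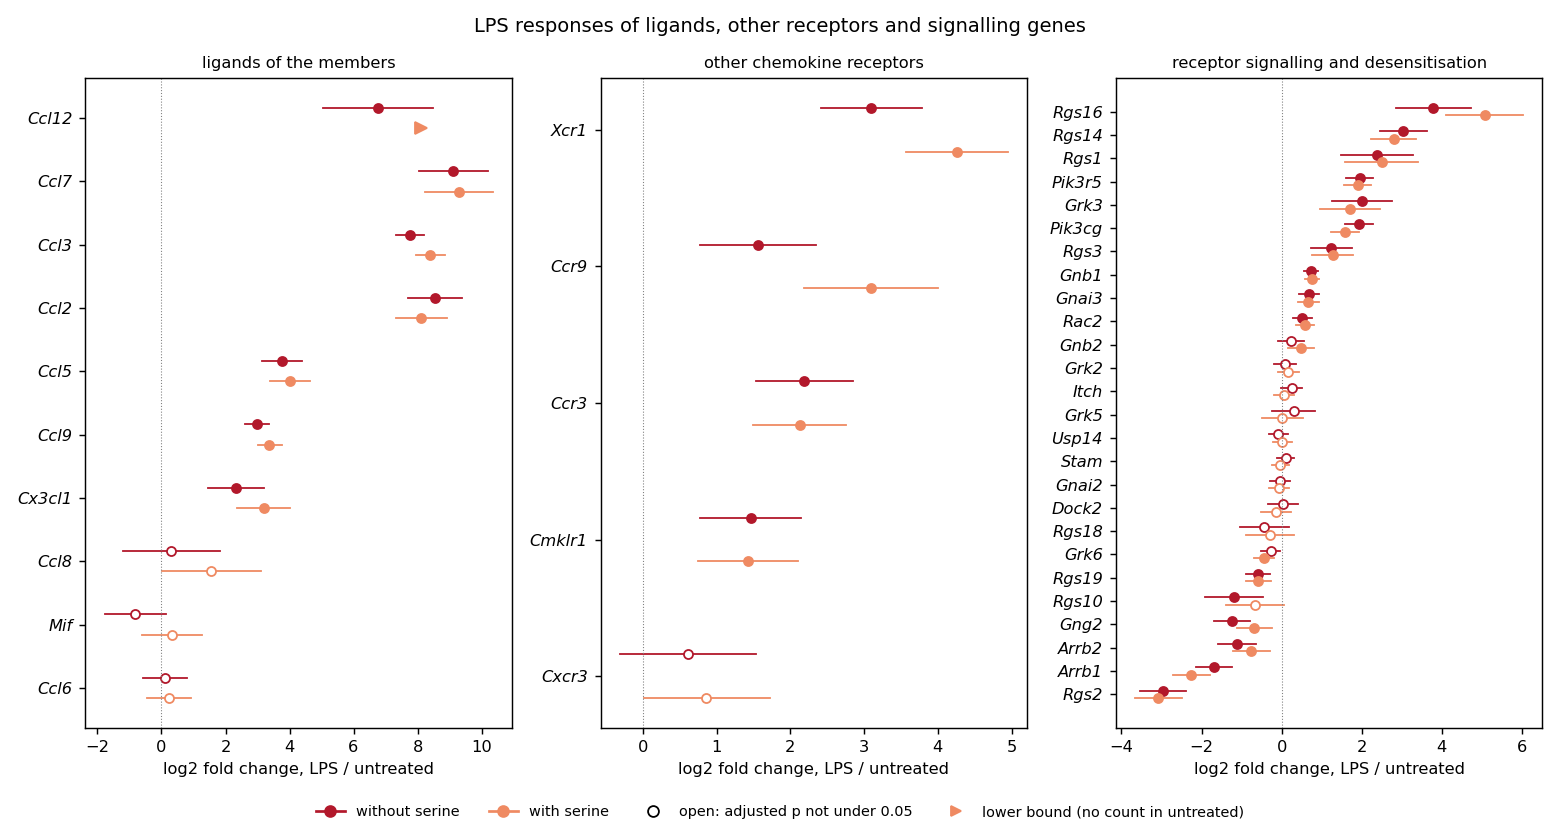
Log2 fold change of LPS over untreated with 95% intervals for the tested ligands, other receptors and signalling genes, without serine (dark red) and with serine (orange), scaled by TMM. Filled symbols passed the threshold of 0.05 and the arrowhead for Ccl12 is the lower bound of 8.10, while Rgs2 lies at -2.96 and -3.08.

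Genes whose log2 levels most resembled each member were listed by Pearson's r among 7874 genes with a mean log2 CPM of at least 3, as a description over libraries that share the LPS contrast. Cxcr4 was closest to Arl11 (r = 0.991), Slc26a11 and Natd1 (0.990 each) over 16 libraries, and within the 8 LPS libraries to Por (0.981), Avl9 (0.978) and Zbtb18 (0.977). Ccrl2 was closest to Zc3h12c, Il1rn, the interleukin-1 receptor antagonist, and Tcirg1 (0.998 each). Cx3cr1 was closest to Snap47 (0.971), Kcnab2 (0.968) and Mlec (0.962), Ccr2 to Cdk2 (0.957), Armc1 (0.954) and Gclm (0.949), and Ccr1 to Eng (0.965), Pdk3 and G3bp2 (0.960 each). Without replicate 1 of all groups, only Zc3h12c kept a place among the first 3, and the first gene for Ccr1 stood at place 212.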

How the data were processed

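RNA counts per gene of 16 libraries in 4 groups were used as deposited by the authors. The submitters' processing notes list mm10 as the build and edgeR, HTSeq, SAMtools, STAR and Trimmomatic 0.33 as tools, without saying which step each served. The kit named in the labels does not mark strand. The deposited FPKM values of the authors were used only for the order of levels, and their deposited log2 fold changes and adjusted p-values only where named. A further 24 per-sample columns were left out.

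The re-analysis used edgeR 4.0.16 in R 4.3.3: default filter, TMM, and a robust quasi-likelihood fit of 4 group means to all 16 libraries, with two-sided tests adjusted over 11004 genes. SE was taken from the fold change and its F statistic. The biological coefficient of variation was 20.9%. DESeq2 1.42.0, library totals, no filter, the replicate block, 2-group fits and left-out libraries were alternatives. Scripts were tested on simulated data. Floors cover counting error only, while the 95% intervals of fold changes come from the fit and include the spread between libraries.

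Residuals around the group means correlated at 0.125 to 0.66 between libraries of the same number in the 4 comparisons of groups, over the 0.1 required, so the numbers pair the samples. No library was a copy of another (lowest chi-square per degree of freedom 2.04). The members and lists were chosen with earlier results of these data known. From the lists, genes past the threshold were named by size of change, at most 6 a comparison, together with the ligands and any gene with at most 3 counts in all. A further receptor gene is not reported here.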

Additional observations from a re-analysis of the deposited data

Results flagged for a closer look

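In LPS-treated cells without serine, replicate 1 of Ccr1 lay far from the others, at 29.4 CPM against 41.3 to 42.1 CPM, and its gap was 0.935 of the group's range. Of 20 sets of 4 libraries checked (5 genes in 4 groups) this was the 1 past Dixon's 95% critical value, and chance flags about 1 in 20. Without replicate 1 of all 4 groups, Ccr1 kept its calls under LPS.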

How the results depend on the processing

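The 5 members kept their direction and call under LPS in every alternative run in both media. Cxcr4 under LPS, without over with serine, ranged from 0.95 to 1.21 on the log2 scale over 15 alternatives. Counts of genes called varied more. In untreated serine withdrawal (0 genes) DESeq2 called 13, no filter 2, the replicate block 9, and the block without the smallest library 79, with 1 member. In withdrawal under LPS (7 genes) library totals called 0, DESeq2 110, no filter 4, the block 98, the 2-group fit 35, leaving out 1 library 0 to 7, leaving out replicate 1 of all groups 0, and the block without the smallest library 922, with 2 members. In the difference between the withdrawals (0 genes) DESeq2 called 1 and the block without the smallest library 8. The block alone changed no call of a member. The causes were not tested. Scaled by library totals, Cxcr4 was at 37.3 CPM in LPS cells with serine, 800 in untreated cells without serine and 825 with serine; Ccr1 at 31.3 in LPS cells without serine, 17.6 in untreated cells without serine and 19.2 with serine; Ccr2 at 20.7 in untreated cells without serine; Ccrl2 at 673 and 525 in LPS cells without and with serine and 18.6 in untreated cells with serine; Cx3cr1 at 30.6 in untreated cells without serine. With GENCODE exon lengths, 3 of 5 members kept their place in the order in untreated cells without serine and 2 with serine. Depth limits Cx3cr1 and Ccr2 most under LPS.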
